A study of Mus musculus with 9 samples.

Results

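Frk, Tanc2, Cplx2, Rnpepl1, Tpbg, Arrdc3, Stc1 and Tnfsf18 are 8 of the 38924 genes in a count table of cultured mouse cardiac fibroblasts in which Gata4 or Tbx20 was knocked down. They were chosen by their expression in the knockdown libraries, as genes whose Gata4 KD and Tbx20 KD values showed little overlap and which belong to no common pathway. The choice had no numeric threshold, so there are no genes just inside or just outside it. The difference between the knockdowns is therefore given as a description with no test. Of the 8 genes, 5 (Frk, Tanc2, Tpbg, Arrdc3 and Stc1) were higher in Gata4 KD than in Tbx20 KD, and 3 (Cplx2, Rnpepl1 and Tnfsf18) were lower. All 8 passed the filter on low counts in every fit.

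The cells were primary cardiac fibroblasts from adult mice of 8 to 10 weeks on a C57BL/6 background. All groups carried the Cas9 nuclease with green fluorescent protein (RosaCas9-EGFP), so that a delivered guide RNA is enough to direct cutting. Cells were grown for 3 days, sorted as CD45-CD31-CD90+, replated for 6 days to 80 to 90% confluency and then lipofected with guides. Control cells received scrambled guides, Gata4 KD cells 2 guides against Gata4 and Tbx20 KD cells 2 guides against Tbx20. Each group had 3 libraries, named a, b and c. The labels do not say whether the libraries of a group came from separate animals, although the study's methods call them biological replicates. The labels give no sort for transfected cells, so a library may average over edited and unedited cells. In such bulk RNA, fewer cells expressing a gene and less RNA per cell cannot be told apart.

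Gata4 is a zinc finger transcription factor that binds the core GATA, and Tbx20 is a T-box factor whose family binds sites built on AGGTGT. Both are needed to form the heart in the embryo, and both are expressed in adult cardiac fibroblasts. The 8 genes have separate roles. Frk is a tyrosine kinase related to the Src family, Tpbg (also called 5T4) is a cell surface glycoprotein that modulates Wnt signalling, and Arrdc3 is an alpha-arrestin that links membrane receptors to ubiquitin ligases of the NEDD4 type. Stc1 and Tnfsf18 encode ligands: Stc1 is a secreted glycoprotein hormone induced by low oxygen, and Tnfsf18 is the membrane ligand of the GITR receptor on T cells. Tanc2 is a scaffold protein known from synapses, Cplx2 is a complexin that binds the SNARE machinery of vesicle fusion, and Rnpepl1 is an aminopeptidase of the M1 family.

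The guides define the groups, so their sequences are shown first. Each is written 5′ to 3′ in lower case, with the adjacent bases that Cas9 needs (NGG) in capitals. On GRCm38 all 4 lie in coding exons of their target. The first Gata4 guide lies at chr14:63204711-63204730 on the minus strand and the other at chr14:63240581-63240600 on the plus strand. The Tbx20 guides lie at chr9:24770708-24770727 on the minus strand and chr9:24765732-24765751 on the plus strand.
Gata4 guide at 63204711: cagagagtgtgtcaattgtgGGG
Gata4 guide at 63240581: gcaggactgggctgtcgaagGGG
Tbx20 guide at 24770708: caaattccatgaactgggcaCGG
Tbx20 guide at 24765732: gagctgctcgccagtaaaggGGG
The annotated transcripts of the 8 genes were searched on both strands for 20-base sites followed by NGG. The closest site in any of them had 7 mismatches to a guide, over all 32 pairs of guide and gene. Introns and flanking sequence were not searched.

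The promoters of the 8 genes were read from RefSeq on GRCm38.p6, from 250 bases before to 50 bases after each start, and 10 entries matched 7 of the genes. They were searched for GATAA on both strands. They were also searched for AGGTGT on both strands, and no match of either overlapped one of the other. GATAA was found in 2 of the 10 entries, both of Tpbg, and in 25.4% of all 32851 entries in the table. AGGTGT was found in 4 of the 10, which belong to Cplx2 and Arrdc3, and in 13.7% of all entries. Of the Arrdc3 entries, 2 overlap and hold the same match. The promoters of Frk, Tanc2, Rnpepl1 and Tnfsf18 held neither string in this window. GATAA is not the only string with the core GATA, and the others were not counted. For example, the entry of Frk holds agatag, and that of Cplx2 holds it on the opposite strand. These matches describe letters and not binding. The entries below carry a match in capitals. That of Tpbg is at chr9:85842130-85842429, with GATAA starting 59 bases before the start site. That of Arrdc3 is at chr13:80883134-80883433, with the AGGTGT match on the opposite strand. That of Cplx2 is at chr13:54302306-54302605 and belongs to a start site upstream of the GENCODE gene. All lie on the plus strand.
Tpbg: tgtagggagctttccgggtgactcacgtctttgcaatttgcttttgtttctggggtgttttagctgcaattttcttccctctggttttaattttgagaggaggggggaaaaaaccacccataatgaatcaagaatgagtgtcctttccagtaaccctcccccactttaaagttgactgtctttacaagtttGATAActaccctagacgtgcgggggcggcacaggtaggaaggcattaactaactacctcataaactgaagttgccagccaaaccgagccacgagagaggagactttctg
Arrdc3: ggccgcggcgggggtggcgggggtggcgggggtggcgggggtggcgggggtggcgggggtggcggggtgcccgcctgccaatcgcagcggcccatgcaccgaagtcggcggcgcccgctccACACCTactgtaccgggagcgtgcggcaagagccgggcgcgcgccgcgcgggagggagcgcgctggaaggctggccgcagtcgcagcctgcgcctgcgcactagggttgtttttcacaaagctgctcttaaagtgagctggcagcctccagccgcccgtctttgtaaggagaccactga
Cplx2: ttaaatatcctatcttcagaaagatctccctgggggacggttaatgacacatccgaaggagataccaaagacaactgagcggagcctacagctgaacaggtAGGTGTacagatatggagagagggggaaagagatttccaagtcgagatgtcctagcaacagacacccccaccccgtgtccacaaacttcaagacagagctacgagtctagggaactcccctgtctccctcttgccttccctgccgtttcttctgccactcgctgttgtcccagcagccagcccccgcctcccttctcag

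The shallowest library held 31214828 counts and the deepest 41950397. Expression is given as CPM, counts scaled to library size with TMM factors over the 9 libraries. Gata4 averaged 162 ± 5.20 CPM in control, 55.3 ± 9.12 CPM in Gata4 KD and 190 ± 10.3 CPM in Tbx20 KD (mean ± SD of 3 libraries each). Every Tbx20 KD library lay above every control for Gata4. That difference did not pass the test over all genes (edgeR log2 fold change 0.23, SE 0.07, adjusted p = 0.9997). Tbx20 averaged 1001 ± 287 CPM in control, 392 ± 61.8 CPM in its own knockdown and 697 ± 195 CPM in Gata4 KD. The lower Tbx20 level in Tbx20 KD did not pass the test over all genes (edgeR log2 fold change -1.35, SE 0.21, adjusted p = 0.748). All 9 fibroblast markers averaged above 1 CPM in each group. Their sums per library were 11220 to 13395 CPM in control, 8199 to 12268 CPM in Gata4 KD and 10956 to 13950 CPM in Tbx20 KD. Within the list the markers moved both ways, with Col3a1 at 3166 CPM in control and 2216 CPM in Gata4 KD, and Pdgfra at 449 and 580 CPM. The cardiomyocyte markers summed to 0.578 to 1.85 CPM. Of the markers of other cell types, those of mesothelium summed to 9.39 to 17.3 CPM in Gata4 KD, against 25.7 to 48.8 CPM in control and 27.1 to 44.1 CPM in Tbx20 KD, with 3 of 6 above 1 CPM in Gata4 KD and 4 of 6 in the other groups, and with the defining marker Msln at 0 to 0.324 CPM. Most of the sum in control and Tbx20 KD was Lrrn4, at means of 24.7 and 25.4 CPM, and Lrrn4 averaged 2.38 CPM in Gata4 KD. Upk3b (2.42 CPM in control and 0.853 CPM in Gata4 KD), Upk1b (3.30 and 1.49 CPM) and Msln (0.167 and 0.0487 CPM) were also lower there. Krt19 (6.67 and 8.56 CPM), the largest of the 6 in Gata4 KD, and Wt1 (0.745 and 0.820 CPM) were not lower in Gata4 KD. Leukocyte markers summed to 12.1 to 19.2 CPM in Gata4 KD and 20.3 to 22.9 CPM in control, with 5 of 7 above 1 CPM in each and Cd3e at 0. Neural markers summed to 111 to 175 CPM in Gata4 KD and 181 to 250 CPM in control, nearly all of it Tubb3, with 2 of 7 above 1 CPM in Gata4 KD and 3 of 7 in control. In the leukocyte list Csf1r was lower in Gata4 KD (9.98 CPM in control and 6.43 CPM), while Ptprc was not (2.31 and 2.37 CPM). The endothelial markers Pecam1 (5.55 and 8.30 CPM) and Kdr (2.83 and 5.57 CPM) were higher in Gata4 KD. Tek, also endothelial, was lower (27.9 and 22.1 CPM). Some of the markers thus move with the Gata4 KD comparison below, and their part in any of its values was not tested. After group means were taken out, control b scored highest on the leading principal component (24.3) and control c lowest (-20.0), and results that rest on a single library are given with and without it.

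Frk (ENSMUSG00000019779, chr10:34483399-34611278, plus strand), the Src-related kinase, was at 36.1, 48.8 and 33.3 CPM in control a, b and c. Its Gata4 KD libraries read 80.1, 85.6 and 82.3 CPM and its Tbx20 KD libraries 40.2, 42.6 and 41.9 CPM. The Gata4 KD libraries lay close together and well above both other groups, while the Tbx20 KD libraries lay inside the range of the controls. Frk was thus 1.99-fold higher in Gata4 KD than in Tbx20 KD (log2 difference 0.995, SE 0.05), and its control mean lay slightly below that of Tbx20 KD. No 75-base window of its transcripts occurs in another gene.

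Tpbg (ENSMUSG00000035274, chr9:85842380-85847040, plus strand), the Wnt-modulating surface glycoprotein, followed the same pattern. Its libraries read 23.0, 26.6 and 23.7 CPM in control, 42.4, 45.6 and 42.1 CPM in Gata4 KD and 24.0, 25.4 and 26.3 CPM in Tbx20 KD. The Tbx20 KD libraries lay within the control range. The log2 difference between the knockdowns was 0.78 (SE 0.06), a 1.72-fold higher level in Gata4 KD. It is the gene whose promoter, printed above, holds GATAA.

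Arrdc3 (ENSMUSG00000074794, chr13:80883384-80896042, plus strand), the alpha-arrestin, read 41.5, 47.5 and 39.8 CPM in control. It read 80.3, 85.5 and 71.5 CPM in Gata4 KD and 43.4, 37.7 and 34.9 CPM in Tbx20 KD. Tbx20 KD overlapped control only through library a, and without that library all Tbx20 KD values were below all controls. Arrdc3 was 2.05-fold higher in Gata4 KD than in Tbx20 KD (log2 difference 1.03, SE 0.10).

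Stc1 (ENSMUSG00000014813, chr14:69029238-69041804, plus strand), the secreted hormone induced by low oxygen, had the largest ratio between the knockdowns of the 8 genes. Its libraries read 1.78, 2.03 and 2.24 CPM in control, 7.46, 9.004 and 3.74 CPM in Gata4 KD and 2.23, 1.41 and 1.84 CPM in Tbx20 KD. Gata4 KD varied most here, with a coefficient of variation of 40.1%, and library c lay nearer to the controls than to the other Gata4 KD libraries. The lowest count behind any of these values was 45. The log2 difference between the knockdowns was 1.87 (SE 0.33), or 3.65-fold.

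Tnfsf18 (ENSMUSG00000066755, chr1:161494655-161505290, plus strand), the GITR ligand, moved the other way. It read 6.85, 9.01 and 5.11 CPM in control, 5.04, 4.53 and 4.54 CPM in Gata4 KD and 11.5, 9.58 and 9.19 CPM in Tbx20 KD. The controls spread widely and came close to both knockdowns, with control c just above the highest Gata4 KD library and control b just below the lowest Tbx20 KD library. Tnfsf18 was 2.14-fold lower in Gata4 KD than in Tbx20 KD (log2 difference -1.10, SE 0.12).

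Tanc2 (ENSMUSG00000053580, chr11:105589986-105929304, plus strand), the scaffold, was higher in Gata4 KD and lower in Tbx20 KD than in every control. It read 36.1, 41.1 and 39.5 CPM in control, 60.1, 67.0 and 59.2 CPM in Gata4 KD and 34.0, 31.7 and 32.0 CPM in Tbx20 KD. The gap above control was wide and the gap below it narrow. The log2 difference between the knockdowns was 0.93 (SE 0.06), or 1.91-fold.

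Cplx2 (ENSMUSG00000025867, chr13:54371349-54383917, plus strand), the complexin, was lower in Gata4 KD and higher in Tbx20 KD. It read 56.1, 62.3 and 60.8 CPM in control, 41.0, 37.9 and 37.4 CPM in Gata4 KD and 79.4, 73.5 and 78.9 CPM in Tbx20 KD. No library of any group reached the range of another, and the knockdowns differed by 1.99-fold (log2 difference -0.99, SE 0.06). Of its 75-base windows 2.56% also occur in another gene, the largest share of the 8 genes.

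Rnpepl1 (ENSMUSG00000026269, chr1:92910783-92924384, plus strand), the M1 aminopeptidase, showed 3 separate levels. Its libraries read 12.7, 11.1 and 13.1 CPM in control, 9.12, 8.53 and 9.11 CPM in Gata4 KD and 18.4, 17.7 and 18.2 CPM in Tbx20 KD. Its Tbx20 KD libraries had a coefficient of variation of 1.87%, the smallest of any group of the 8 genes. The log2 difference between the knockdowns was -1.02 (SE 0.07), so that Rnpepl1 was 2.03-fold lower in Gata4 KD.

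**Figure D1:**
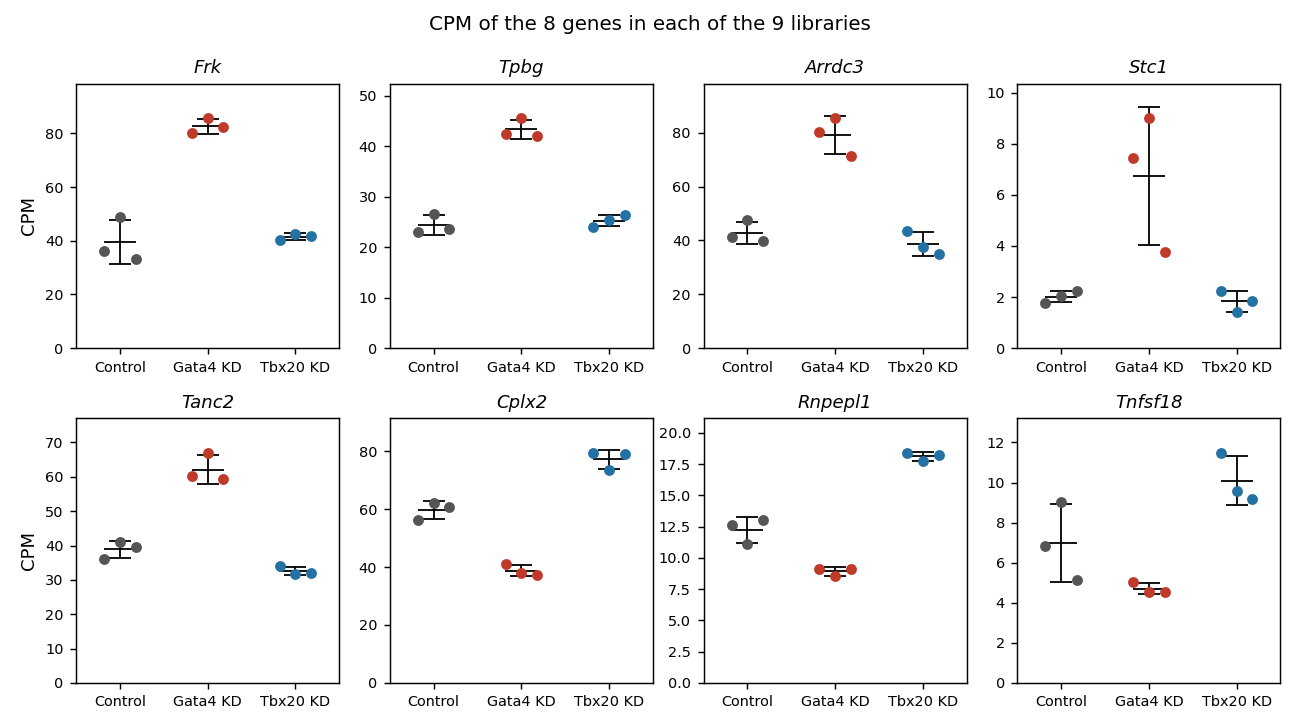
CPM of each gene (y axis, linear from 0) in the Control, Gata4 KD and Tbx20 KD libraries, with points for replicates a, b and c from left to right, a line for the mean and bars for the SD (n = 3). In the upper row Tbx20 KD overlaps control and Gata4 KD lies above both, and in the lower row the 3 groups do not overlap.

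Per kilobase of exon, merged over all annotated transcripts of a gene, the mean control level was highest for Cplx2 at 12.1 CPM per kb. Frk (7.50), Arrdc3 (6.85), Tpbg (6.38), Tnfsf18 (3.38), Tanc2 (2.34), Rnpepl1 (1.30) and Stc1 (0.481 CPM per kb) followed. Which transcripts the cells express was not determined, so the order depends on the annotated lengths. For Rnpepl1, 12 transcripts merge to 9.47 kb. The control libraries of Frk, Arrdc3 and Tpbg overlapped on this scale, as did those of Tnfsf18 and Tanc2. Those of Cplx2 lay above all others, and those of Rnpepl1 and Stc1 below all others.

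The next question was where the control stands between the knockdowns. Gata4 KD and Tbx20 KD libraries did not overlap for 8 of 8 genes, which were chosen for little overlap, against 23.0% of the 14782 genes tested. Gata4 KD and control did not overlap for 8 of 8, against 14.0% of all genes, and Tbx20 KD and control for 4 of 8, against 7.06%. Controls lay between the knockdowns and overlapped neither for 4 genes (Tanc2, Cplx2, Rnpepl1 and Tnfsf18), against 0.507% of all genes. For the other 4 (Frk, Tpbg, Arrdc3 and Stc1), Gata4 KD was apart from control and Tbx20 KD overlapped it, as for 11.8% of all genes. Tbx20 KD was apart from control while Gata4 KD overlapped it for 0 of 8, against 4.82%. Among the 3396 genes whose knockdown libraries are apart, as those of the 8 genes are, these shares were 2.21% for controls between, 34.4% for Gata4 KD alone apart and 8.57% for Tbx20 KD alone apart. Nothing is read from these counts about the 8 genes, because the knockdown libraries that chose them enter each one.

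On a log2 scale that sets the Tbx20 KD mean at 0% and the Gata4 KD mean at 100%, the control mean of Frk lay at -9.65% and that of Tpbg at -6.48%, both slightly beyond Tbx20 KD. That of Stc1 lay at 8.96% and that of Arrdc3 at 14.8%. Tanc2 (27.6%) and Cplx2 (37.3%) had controls nearer to Tbx20 KD, while Tnfsf18 (51.1%) and Rnpepl1 (55.4%) had controls near the middle. The order is a description, since it shares the libraries of the choice.

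**Figure D2:**
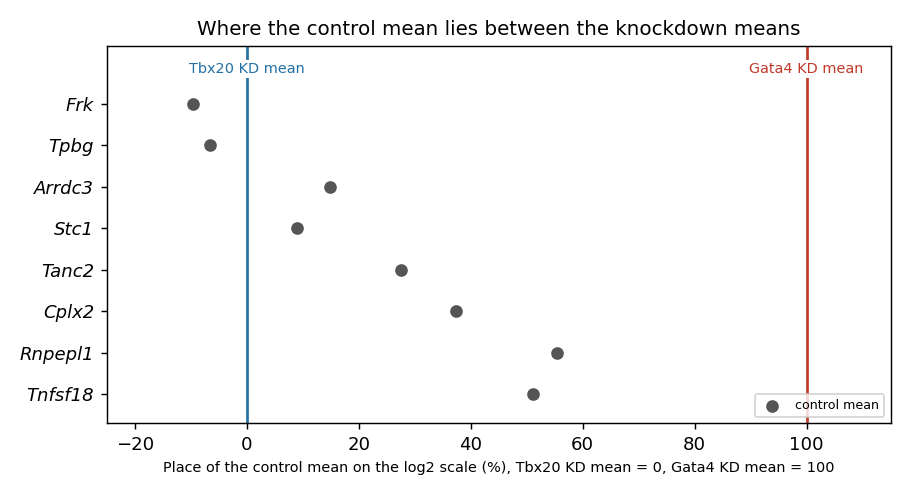
Place of the mean of the control libraries (grey points, n = 3) of each gene on a log2 CPM scale in percent, with the Tbx20 KD mean at 0 (blue line) and the Gata4 KD mean at 100 (red line). Frk and Tpbg sit left of the Tbx20 KD line and Rnpepl1 lies farthest right, at 55.4%.

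Each knockdown was then compared with control by edgeR's quasi-likelihood test with Benjamini-Hochberg adjustment over all genes. The comparisons share the 3 control libraries and so are set side by side only. The knockdown libraries that chose the 8 genes enter these comparisons, so the adjusted p of a member is not independent of the choice and nothing is read from the counts. In Gata4 KD 5 of 8 genes passed, against 0.380% of the 14468 genes tested. Frk (log2 fold change 1.07, SE 0.13, adjusted p = 0.0245), Tpbg (0.83, SE 0.09, adjusted p = 0.0116), Arrdc3 (0.88, SE 0.10, adjusted p = 0.0168) and Tanc2 (0.67, SE 0.09, adjusted p = 0.0266) had positive estimates, and Cplx2 a negative one (-0.63, SE 0.08, adjusted p = 0.0273). Stc1 had a larger estimate and a larger error (1.73, SE 0.31, adjusted p = 0.0748). Rnpepl1 (-0.46, SE 0.11, adjusted p = 0.205) and Tnfsf18 (-0.57, SE 0.20, adjusted p = 0.444) did not pass. The count of 5 fell to 0 when control a, control c, Gata4 KD a or Gata4 KD b was left out, and the count over all genes fell from 55 to 6, 14, 10 and 9 in the same omissions, while Frk's fold change stayed between 0.96 and 1.24 on the log2 scale over all 6 omissions. Without Gata4 KD c, where 0.553% of all genes passed, Stc1 passed (log2 fold change 2.05, adjusted p = 0.0104) and Cplx2 did not (-0.58, adjusted p = 0.0610).

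In Tbx20 KD 0 of 8 genes passed against control in edgeR, where 0.00687% of the 14547 genes tested did. At an unadjusted p under 0.05 there were 4, against 2.69% of all genes. DESeq2 called 2 (Cplx2 and Rnpepl1), against 0.0778% of all genes, and limma-voom called 0, against 0.00687%. Rnpepl1 had the largest estimate, 0.57 (SE 0.09, adjusted p = 0.748), ahead of Tnfsf18 at 0.53 (SE 0.20) and Cplx2 at 0.38 (SE 0.07). Tanc2 was at -0.25 (SE 0.08), Arrdc3 at -0.15 (SE 0.11) and Stc1 at -0.13 (SE 0.21). Frk (0.08, SE 0.13) and Tpbg (0.05, SE 0.09) were nearest to 0. These 7 had an adjusted p of 0.9997.

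**Figure D3:**
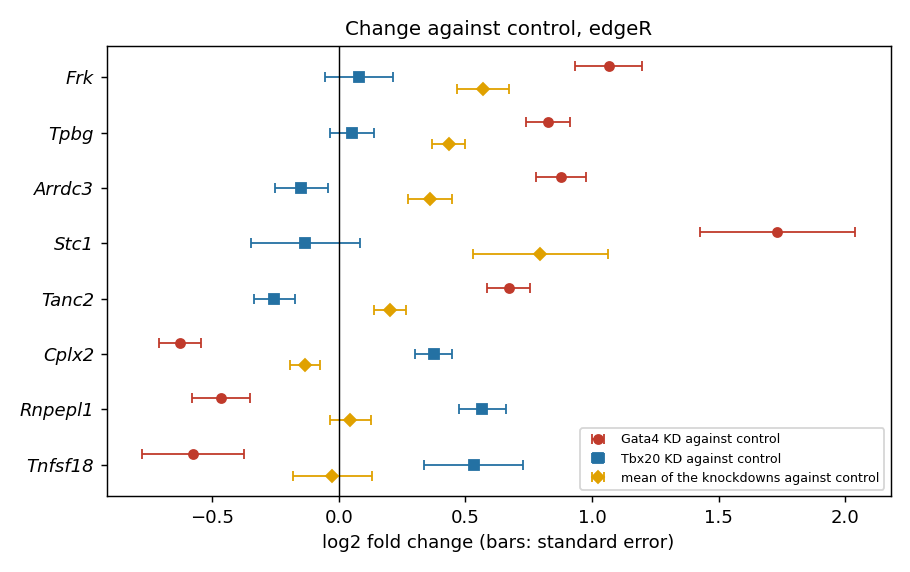
Log2 fold change against control (x axis) with its standard error for each gene, from edgeR, with circles for Gata4 KD (3 against 3 libraries), squares for Tbx20 KD (3 against 3) and diamonds for the mean of the knockdowns (all 9 libraries). Circles and squares fall on opposite sides of 0 for Tanc2, Cplx2, Rnpepl1 and Tnfsf18, and the squares of Frk and Tpbg sit at 0.08 and 0.05.

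The mean of both knockdowns was also compared with control. Its weights are orthogonal to the difference between the knockdowns, but it uses the same knockdown libraries, so it is not independent of the choice either. In edgeR on all 9 libraries 0 of 8 genes passed, against 0.0338% of the 14782 genes tested, with 5 at an unadjusted p under 0.05, against 5.78% of all genes. Tpbg came nearest (log2 fold change 0.43, SE 0.07, adjusted p = 0.0916), followed by Frk (0.57, SE 0.10, adjusted p = 0.210) and Arrdc3 (0.36, SE 0.09, adjusted p = 0.369). Stc1 was at 0.80 (SE 0.27, adjusted p = 0.648) and Tanc2 at 0.20 (SE 0.06, adjusted p = 0.565). Cplx2 (-0.13, SE 0.06), Rnpepl1 (0.05, SE 0.08) and Tnfsf18 (-0.03, SE 0.16) were near 0. The median absolute log2 change was 0.28 over the 8 genes and 0.08 over all genes. DESeq2 called 3 of the 8 (Frk, Tpbg and Arrdc3), against 0.514% of all genes, and limma-voom called 0, against 0.0271%. Without control b, edgeR called 2 (Frk, 0.74, adjusted p = 0.00200, and Tpbg, 0.49, adjusted p = 0.0134), and its calls over all genes went from 5 to 348, or 2.32%.

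Relatives and partners of each gene were taken from lists of 82 genes, of which 62 could be tested between the knockdowns. Only 3 passed, against 1.44% of the 14477 genes tested, and all 3 were in the list of 12 stanniocalcins and hypoxia-induced genes, of which 11 were tested. Stc2, the paralogue of Stc1, read 15.0, 16.4 and 14.8 CPM in control, 7.68, 7.09 and 9.94 CPM in Gata4 KD and 13.2, 15.7 and 15.2 CPM in Tbx20 KD. It fell in Gata4 KD relative to Tbx20 KD (log2 difference -0.83, SE 0.14, adjusted p = 0.0430), opposite in sign to the 1.87 of Stc1. Against control, Stc2 also fell in Gata4 KD (log2 fold change -0.90, SE 0.14, adjusted p = 0.0493). Ndrg1, a stress-responsive gene, was lower in Gata4 KD (-0.68, SE 0.10, adjusted p = 0.0247), at 21.9, 21.9 and 26.5 CPM against 34.8, 37.9 and 40.4 CPM. Its controls read 28.3, 25.6 and 27.8 CPM, and its log2 fold change against control was -0.22 in Gata4 KD and 0.47 in Tbx20 KD. Vegfa, the angiogenic growth factor, was higher (0.39, SE 0.05, adjusted p = 0.0236), at 182, 185 and 173 CPM against 146, 135 and 132 CPM. Egln3, an oxygen-sensing hydroxylase, read 12.7, 15.7 and 7.73 CPM against 5.48, 4.74 and 4.67 CPM and did not pass (1.28, SE 0.24, adjusted p = 0.0527). The 3 that passed thus held both signs, with 1 higher and 2 lower. At an unadjusted p under 0.05 in edgeR there were 6 of the 11 tested, where 16.7% of all genes were. Besides those 3 and Egln3, these were Slc2a1 (0.18, SE 0.08) and Ldha (0.17, SE 0.07), both higher in Gata4 KD. The median difference of the list was 0.07 on the log2 scale. None of the related genes passed when Gata4 KD a, Gata4 KD b, Tbx20 KD b or Tbx20 KD c was left out, 2 passed without Tbx20 KD a (Vegfa and Ndrg1), against 0.709% of all genes, and 6 passed without Gata4 KD c, against 5.47%. Over all genes the calls numbered 22, 55, 28 and 27 without Gata4 KD a, Gata4 KD b, Tbx20 KD b and Tbx20 KD c, and 208 with every library.

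In the other lists edgeR called 0 genes, with 12 gene entries at an unadjusted p under 0.05, where 16.7% of all genes were. DESeq2 called Fyn, Lrp6, Tnfsf8 and Tnfsf15 there, against 5.56% of all genes. The kinases nearest to Frk were tested for 6 of 10 and led by Fyn (0.30, SE 0.07, adjusted p = 0.106). Of the Wnt partners of Tpbg, the co-receptor Lrp6 was at 0.25 (SE 0.06, adjusted p = 0.0989). Of the arrestins and NEDD4-type ligases around Arrdc3, 11 of 12 were tested, and Nedd4l was at -0.19 (SE 0.06, adjusted p = 0.176). In the list around Tanc2, 7 of 8 were tested, with its paralogue Tanc1 at 0.13 (SE 0.06, adjusted p = 0.351) and the scaffold Dlg4 at 0.19 (SE 0.05, adjusted p = 0.122). For Cplx2, 4 of 10 SNARE-related genes were tested, and Cplx1, Cplx3, Cplx4, Snap25 and Syt1 were too low to test, at mean levels of at most 0.142 CPM in every group. Of the M1 aminopeptidases around Rnpepl1, 8 of 9 were tested, with the close relative Rnpep at 0.05 (SE 0.09, adjusted p = 0.796). Lnpep was at 0.25 (SE 0.08, adjusted p = 0.185) and Aopep at 0.17 (SE 0.06, adjusted p = 0.191). Anpep had the other sign, at -0.47 (SE 0.21, adjusted p = 0.318). Of the TNF ligands and the GITR receptor, 12 of 18 were tested. The receptor gene Tnfrsf18 was at 0.695, 0.488 and 0.821 CPM in control, Gata4 KD and Tbx20 KD (log2 difference -0.73, SE 0.28, adjusted p = 0.238). Tnfsf8, a ligand of CD30, was at 1.91 (SE 0.45, adjusted p = 0.0974).

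**Figure D4:**
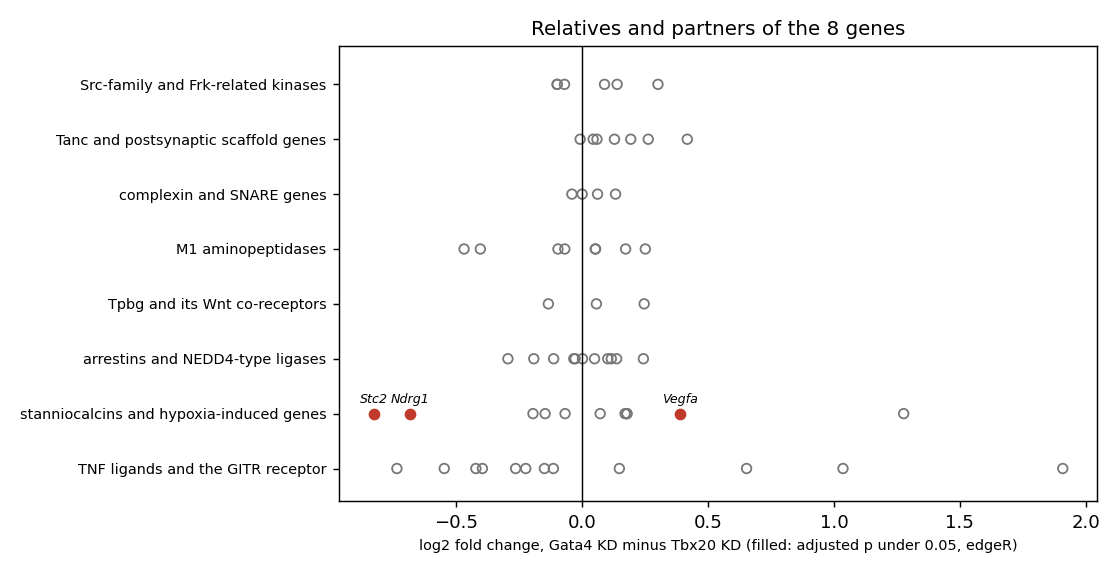
Log2 fold change of Gata4 KD minus Tbx20 KD (x axis) for the tested relatives and partners of the 8 genes, with each list on a row, filled red points for genes with an adjusted p under 0.05 in edgeR and open points for the rest. The only filled points are Stc2, Ndrg1 and Vegfa, all in the stanniocalcin and hypoxia row.

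The nearest tested genes on either side of each member were then compared between the knockdowns. In edgeR 0 of 16 passed, against 1.44% of all genes tested. Dusp28, a phosphatase gene 2.35 kb from Rnpepl1, came nearest, at 1.16, 1.17 and 1.84 CPM in Gata4 KD and 2.73, 4.02 and 3.97 CPM in Tbx20 KD (log2 difference -1.35, SE 0.25, adjusted p = 0.0523). Its controls a, b and c read 1.27, 2.99 and 1.25 CPM. Control b lay within the Tbx20 KD range and the other controls within that of Gata4 KD, unlike the separate levels of Rnpepl1. The difference of Dusp28 had the same sign as the -1.02 of Rnpepl1. Capn10, on the other side of Rnpepl1, was at -0.16 (SE 0.07, adjusted p = 0.294). Tnfsf4, 76.2 kb from Tnfsf18 and also a TNF ligand, was at -0.55 (SE 0.26, adjusted p = 0.343). Genes annotated across the members' own spans had at most 25 counts in any library.

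The gene most alike each member over the 9 libraries was found by Pearson r of log2 CPM, among 10099 genes with a mean of at least 5 CPM. Because all 9 libraries share the group differences, these values describe the pattern and carry no p. For Tpbg it was Dio2, a deiodinase that activates thyroid hormone (r = 0.997), which read 79.2, 87.8 and 71.3 CPM in Gata4 KD against 4.88 to 7.77 CPM in the other 6 libraries. For Cplx2 it was the matrix metalloproteinase Mmp10 (r = 0.990), at 11.6, 12.8 and 12.2 CPM in control, 5.26, 3.64 and 4.24 CPM in Gata4 KD and 21.6, 19.9 and 18.7 CPM in Tbx20 KD. For Arrdc3 it was the growth factor Fgf7 (r = 0.985), for Tanc2 the sulfotransferase Chst15 (r = 0.991), and for Frk the small GTPase Rap2a (r = 0.983). Stc1 was most like Cyb5b (r = 0.990), Rnpepl1 like the corepressor Tle3 (r = 0.981), and Tnfsf18 like Rnaseh2b (r = 0.943). Pearson r does not measure the size of a change. Mean CPM in Gata4 KD and Tbx20 KD was 252 and 212 for Cyb5b, 62.4 and 75.5 for Tle3, and 14.0 and 16.9 for Rnaseh2b. For Rap2a the means were 65.8 and 53.6 CPM, for Chst15 15.6 and 7.59 CPM, and for Fgf7 51.5 and 17.9 CPM. Between 16 and 39 genes passed r = 0.95 for Frk, Tanc2, Tpbg, Arrdc3 and Stc1, whereas Rnpepl1 had 5, Cplx2 had 1 and Tnfsf18 had 0.

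Within each group, the highest and lowest library of each of the 8 genes was also counted, and the largest counts are given. Control b was the highest control for 6 of 8 genes, Gata4 KD b the highest of its group for 5, and Tbx20 KD a for 6. Gata4 KD c was the lowest of its group for 5. The same counts were not made over all genes, so nothing is read from them.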

How the data were processed

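The authors aligned single-end reads and estimated abundances per gene with RSEM. The deposited values are RSEM's expected counts, already whole numbers and without normalization. The study's methods name GRCm38 with Bowtie2, while the submitters' processing notes name mm9, Bowtie and RSEM, so coordinates here come from GENCODE M21 on GRCm38 and not from the file. A symbol was found for 96.6% of gene IDs, and the rest held 0.262% of counts. The labels name no batch.

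The 8 genes, the lists of relatives and the tests were chosen with earlier results of these data known. Each knockdown was compared with control on its own 6 libraries, and the mean of the knockdowns on all 9, in R 4.3.3 with edgeR 4.0.16 (filterByExpr, TMM, quasi-likelihood F test, Benjamini-Hochberg adjustment over all tested genes, threshold 0.05). The standard error is the log2 fold change divided by the square root of F. With 3 libraries a group, p-values measure the spread between these libraries, which may be technical. Fits were tested on simulated counts.

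Named were the 8 genes, Gata4 and Tbx20, the nearest tested gene on each side, the most alike gene, and related genes past the threshold or at most 3 a list by smallest p. Egln3, Slc2a1, Ldha, Rnpep, Tnfrsf18 and the low SNARE genes were named after their values were seen. Alternatives were DESeq2 1.42.0, limma-voom (limma 3.58.1), RLE factors, library size alone, 2 other filters, all 9 libraries in a fit, the replicate letter as a block, and leaving out each library.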

Additional observations from a re-analysis of the deposited data

Results flagged for a closer look

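Tanc2, Cplx2, Rnpepl1 and Tnfsf18 stood out because every Gata4 KD library lay on one side of all controls and every Tbx20 KD library on the other. The log2 fold changes against control were 0.67 in Gata4 KD and -0.25 in Tbx20 KD for Tanc2. For Cplx2 they were -0.63 and 0.38. For Rnpepl1 they were -0.46 and 0.57. For Tnfsf18 they were -0.57 and 0.53. This difference was not tested, because the contrast between the knockdowns chose the genes and both comparisons share their controls. For Tnfsf18 the gaps to control were narrow on both sides.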

How the results depend on the processing

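Of 24 fold changes of the 8 genes, 184 values from other tools, scalings and filters gave 170 with the same direction and side of the threshold, 8 that newly passed, 5 that no longer passed and 1 that changed sign (Tnfsf18, mean of the knockdowns, limma-voom, 0.0017). Genes passing in Gata4 KD against control numbered 5 and became 0 with the replicate block and ranged from 0 to 5 with a library left out. In Tbx20 KD the 0 became 2 with DESeq2, and stayed 0 in each omission. For the mean of the knockdowns the 0 became 3 with DESeq2 and ranged from 0 to 2 with a library left out. Related genes between the knockdowns, 3, became 8 with DESeq2 and ranged from 0 to 6 with a library left out. With other scalings the genes with knockdowns apart numbered 8 and those with controls between 4. Leaving out a library cannot make groups overlap, so its range (8 to 8 and 4 to 5) says nothing about stability. With a library left out, the sign also changed within the range of Frk in Tbx20 KD (-0.018 without control c to 0.26 without control b), Stc1 in Tbx20 KD (-0.30 without Tbx20 KD a to 0.014 without Tbx20 KD b), Rnpepl1 in the mean (-0.029 without control b to 0.098 without control c) and Tnfsf18 in the mean (-0.20 without control c to 0.19 without control b). None of these 4 values passed the test in any fit run. Deviations of same-letter libraries correlated at -0.32 to 0.37, with 4 of 9 pairs over 0.1, and those of other letters at -0.58 to 0.52. With 3 libraries a group, these correlations cannot settle whether the letters pair the libraries. With the replicate block all genes passing in Gata4 KD fell from 55 to 5 and between the knockdowns from 208 to 101. All genes passing with DESeq2 numbered 279 in Gata4 KD (55 in edgeR), 10 in Tbx20 KD (1), 76 for the mean (5) and 758 between the knockdowns (208). Without the filter they numbered 121, 2, 9 and 324, and in 1 fit of all 9 libraries Gata4 KD gave 148. The causes were not tested. With 3 libraries a group, and Stc1 at a lowest count of 45, precision is limited.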
